A study of Mus musculus with 12 samples.

Results

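Estradiol (E2) was given to mice in the first days of pregnancy, and its effect on gene expression was compared between the oviduct and the uterus. The quantity described is a difference of differences. For each gene it is the E2 effect in oviduct (E2 minus oil) minus the E2 effect in uterus, in log2 units. A positive difference means that E2 left the gene relatively higher in oviduct, and a negative one that it left the gene relatively lower there. All 12 arrays of the series entered it, and it was computed for 19938 genes. The 4 groups, of 3 arrays each, are named here by treatment and tissue, such as oil uterus or E2 oviduct. Per the labels, mice received a daily injection under the skin of 100 µl sesame oil on days 0.5, 1.5 and 2.5 after mating, with E2 at 10 µg/kg or at 0 µg/kg, and organs were collected on day 3.5. Oviducts and uterine horns were flushed, frozen and extracted with TRIzol. The sources used here do not give the strain, genotype or age of the mice or any pooling of animals. Replicates are labelled as biological, and the labels do not tie an oviduct to the uterus of the same mouse. Other doses named in the study design were not analysed here.

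Estradiol acts mainly through the nuclear receptor ESR1, which binds DNA at estrogen response elements, and through signals that stromal and epithelial cells send each other. In the uterus of early pregnancy, progesterone from the corpora lutea holds back the growth and secretory programme that estrogen starts in the epithelium, and prepares the stroma and glands for implantation. The oviduct, which carries the embryo to the uterus, shares the embryonic origin of the uterus and is lined by ciliated and secretory cells. The comparison asks which genes answered the same excess of E2 unequally in the organ that transports the embryo and the organ that receives it.

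Array medians of the linear intensity lay between 89.5 and 92.9. Correlations across genes between arrays of a group lay between 0.984 and 0.996. The tissue labels were borne out by tract identity genes. The uterine homeobox gene Hoxa11 lay between 9.56 and 9.61 in oil uterus and between 5.58 and 5.74 in oil oviduct. The oviductal transcription factor Pax8 lay between 8.34 and 9.01 in oil uterus and between 10.00 and 10.22 in oil oviduct. Both arrays of oil replicate 3 stood apart from the other oil arrays of their tissue. More than 1 log2 unit away were 177 genes in uterus and 302 in oviduct, against 8 to 62 genes on each of the other 10 arrays. Genes of the corpus luteum were high on the oviduct array of oil replicate 3, where Akr1c18 lay at 11.51 and Cyp11a1 at 9.74, against 4.48 to 4.77 and 4.79 to 5.80 on the other oil oviduct arrays. Adipocyte markers were high on E2 uterus replicate 3 (Adipoq 7.85, against 5.56 to 5.70 on the other E2 uterus arrays). Class and list counts below are therefore also given without both oil replicate 3 arrays where leaving these out moved them by more than 1.5 times. The highest Y-linked signal, a guide to background in female tissue, was 7.50 (Sry), and 5.36 without Sry. A fold change that starts or ends below that level is of uncertain size.

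The E2 effect differed between oviduct and uterus for 2288 genes, 11.5% of the 19938 tested (limma, Benjamini-Hochberg adjusted p under 0.05). The difference was positive for 1150 genes (5.77%) and negative for 1138 (5.71%). It reached 2-fold for 234 positive and 334 negative genes. Among the 2288 genes the median absolute difference was 0.66 log2 units, and over all genes the median difference was 0.005. Taking the E2 and oil arrays of a tissue against each other gives 9 array differences per tissue. In 3381 genes (17.0%) the 9 of oviduct all lay on one side of the 9 of uterus, and 2229 of the 2288 were among them. Without both oil replicate 3 arrays, 2812 genes differed (1372 positive and 1440 negative), and 2003 of the 2288 were called again. All group means lay below 7.50 for 610 of the 2288 genes. Of all 19938 genes, 10257 lay below that level on all 12 arrays, a stricter condition than group means below it.

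Nearly all of the differing genes were genes that moved in the uterus. The uterine effect was the larger in absolute size for 2179 of the 2288 genes (95.2%), and the oviductal effect for 109. On its own, the uterine contrast called 5332 genes (26.7%) and the oviductal contrast 58 (0.291%). The oviductal count was 14 or 15 without any one E2 oviduct array, 25 to 32 without any one of oil uterus replicate 1 or 2, the E2 uterus arrays, and oil oviduct replicate 1 or 2, 121 without both oil replicate 3 arrays and 264 with limma's array weights. Classes that rest on it move with it. These contrasts sort the 2288 genes into 5 classes. In the largest, 2168 genes passed the test in uterus and not in oviduct, 1090 of them with a negative and 1078 with a positive difference. A further 13 passed in oviduct and not in uterus, 10 passed in both with the same direction, 8 passed in both with opposite directions, and 89 passed in neither. Of those 89 genes, 87 had estimates of opposite sign in the tissues, with a median absolute difference of 0.48. That class held 46, 57 and 51 genes without E2 oviduct replicate 1, 2 and 3. As a share of each tissue's own calls, the difference was called for 41.0% of the uterine and 53.4% of the oviductal calls. For the other 3146 uterine calls a difference was not detectable with 3 arrays a group. That does not show that oviduct and uterus responded alike.

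**Figure D1:**
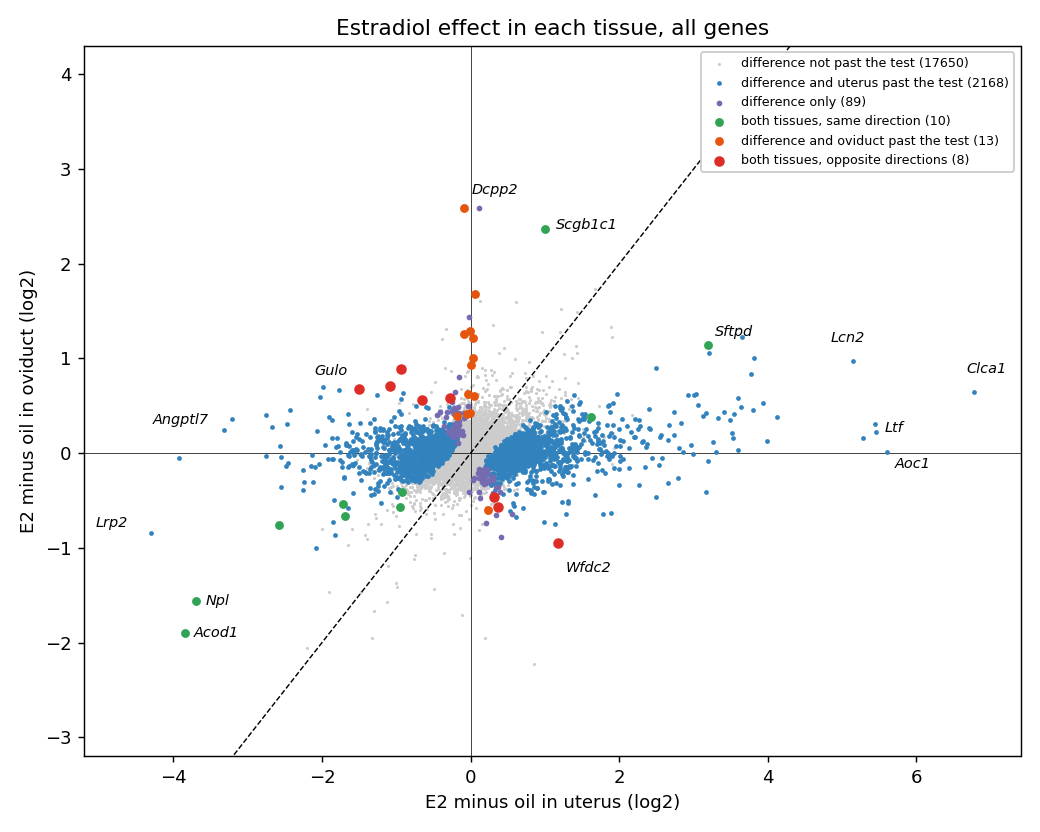
Each point is 1 of 19938 genes, with the E2 effect in uterus (log2, horizontal) against that in oviduct (log2, vertical); the dashed line marks equal effects, and the axes differ in scale. The called genes spread along the horizontal axis, with 2168 of 2288 called in uterus and not in oviduct, while Dcpp2 and Scgb1c1 lie near the top and the 8 genes with opposite calls lie to the upper left and lower right of the origin.

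Among genes called in uterus with a change of at least 2-fold, the oviduct showed little of the change. Of 405 such genes that rose in uterus the difference was called for 347 (85.7%), with a median effect of 1.33 in uterus and 0.11 in oviduct. Of 281 that fell it was called for 228 (81.1%), with medians of -1.28 and -0.07. The genes were chosen by their uterine estimate, which also enters the difference. The called shares and the uterine medians therefore follow in part from the choice, while the oviductal medians come from other arrays. The 95% interval of the oviductal effect lay within 1 log2 unit of 0 for 353 of the 405 and 249 of the 281 genes. It lay within 0.5 for 181 and 108 of them, so for the others part of the uterine change stays possible in oviduct. The oviductal estimate had the uterine sign for 68.9% of the rising genes, beside 48.2% of all genes with a positive oviductal estimate, and for 61.9% of the falling genes, beside 51.8% with a negative one. Without both oil replicate 3 arrays, the share for falling genes was 49.0% and their oviductal median 0.004. The share for rising genes was then 68.2%. Without E2 oviduct replicate 3 it was 63.6%, beside 47.8% of all genes, and the oviductal median of the rising genes was 0.09. The arrays of this series hold whole organs, in which fewer cells of a type and less RNA per cell cannot be told apart.

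Among the genes with large negative differences, some that E2 raised in uterus were already high in oviduct without it, and others were low in the oviduct of both treatments. The amine oxidase Aoc1, which degrades histamine and putrescine, lay at 5.77, 5.59 and 5.66 in oil uterus, 11.47, 10.82 and 11.55 in E2 uterus, 10.57, 10.38 and 10.68 in oil oviduct and 10.48, 10.53 and 10.64 in E2 oviduct. Only the oil uterus arrays were low, and the oviduct arrays of oil and E2 overlapped. The difference for Aoc1 was -5.60 (SE 0.23, adjusted p = 2.38e-07, limma), from 5.61 (SE 0.16) in uterus and 0.01 (SE 0.16) in oviduct. Ltf encodes lactoferrin, an iron-binding antimicrobial protein and a long-known E2 target. Its values were 6.76, 6.73 and 6.31 in oil uterus, 12.12, 11.99 and 12.05 in E2 uterus, 10.38, 10.54 and 11.27 in oil oviduct and 10.88, 10.99 and 10.98 in E2 oviduct. The oil oviduct arrays lay far above the oil uterus arrays and overlapped the E2 oviduct arrays, and the difference was -5.23 (SE 0.27, adjusted p = 2.16e-06, limma). The GABA receptor subunit Gabrp showed the same arrangement, with 5.55, 5.55 and 5.21 in oil uterus, 10.65, 10.81 and 10.70 in E2 uterus, 10.04, 10.00 and 10.80 in oil oviduct and 10.42, 10.46 and 10.43 in E2 oviduct and a difference of -5.13 (SE 0.25, adjusted p = 1.35e-06, limma).

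Genes of the other pattern stayed low in oviduct. Clca1, a secreted regulator of chloride currents, had the largest negative difference, -6.13 (SE 0.99, adjusted p = 0.00227, limma). Its values were 5.51, 5.80 and 5.45 in oil uterus, 12.34, 12.24 and 12.50 in E2 uterus, 6.66, 5.73 and 5.22 in oil oviduct and 5.57, 5.26 and 8.72 in E2 oviduct. The E2 uterus arrays were high, and E2 oviduct replicate 3 lay above the other oviduct arrays. Prap1, a proline-rich acidic protein of secretory epithelia, lay at 5.59, 5.95 and 5.79 in oil uterus, 11.33, 11.05 and 11.28 in E2 uterus, 6.37, 6.38 and 6.21 in oil oviduct and 6.12, 6.11 and 7.66 in E2 oviduct, with E2 oviduct replicate 3 again highest of the oviduct arrays, and a difference of -5.14 (SE 0.45, adjusted p = 3.52e-05, limma). The membrane mucin Muc4 (5.94, 6.05 and 5.99 in oil uterus, 10.06, 9.86 and 10.04 in E2 uterus, 6.19, 5.94 and 6.66 in oil oviduct and 5.99, 6.20 and 6.97 in E2 oviduct) differed by -3.86 (SE 0.32). The connexin Gjb2 differed by -3.73 (SE 0.29) and the epithelial calcium channel Trpv6 by -3.56 (SE 0.29), both with oviduct means under 6. The fatty acid transporter Slc27a2 differed by -3.58 (SE 0.33), with oviduct means of 7.10 with oil and 6.69 with E2. For the 10 named genes with the largest negative differences the call held with any single array left out. The difference of Clca1 then lay between -7.23 and -5.50, and that of Prap1 between -5.65 and -4.88.

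Taken over 286 genes that rose at least 2-fold in uterus with a difference of -1 or lower, 124 had both oviduct means below 7.50. Among the other 162, in 126 the oil oviduct mean was above the E2 uterus mean or less than 1 log2 unit below it, as for Aoc1 and Gabrp, and in 67 it was at or above it. In 113 of the 162 the oil oviduct mean was at least 1 log2 unit above that of oil uterus, as for Aoc1, Gabrp and Ltf. The last 3 counts overlap and do not cover all 162, and the limits were chosen after the values were seen. Of 187 genes that fell at least 2-fold in uterus with a difference of 1 or more, 123 were below 7.50 in both oviduct groups and 17 had an E2 oviduct mean at or above the oil uterus mean. Without both oil replicate 3 arrays, 268 genes fell in this way and 195 of them were below 7.50 in both oviduct groups. Levels below 7.50 are common here, as 10257 of all 19938 genes lay below it on every array. That condition is stricter than both oviduct means below 7.50, which at least as many of all genes meet. E2 oviduct replicate 3 was the highest of the 3 E2 oviduct arrays for 154 of the 286 rising genes (53.8%), beside 30.2% of all genes, with a median distance of 0.07 from the other arrays. The uterine identity gene Hoxa11 lay at 5.69 on that array, against 5.65 and 5.50 on the other E2 oviduct arrays, Hoxa10 at 6.84 against 6.71 and 7.01, and Hoxd10 at 7.50 against 6.88 and 7.60. The part of that array in the differences was not tested beyond leaving it out.

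**Figure D2:**
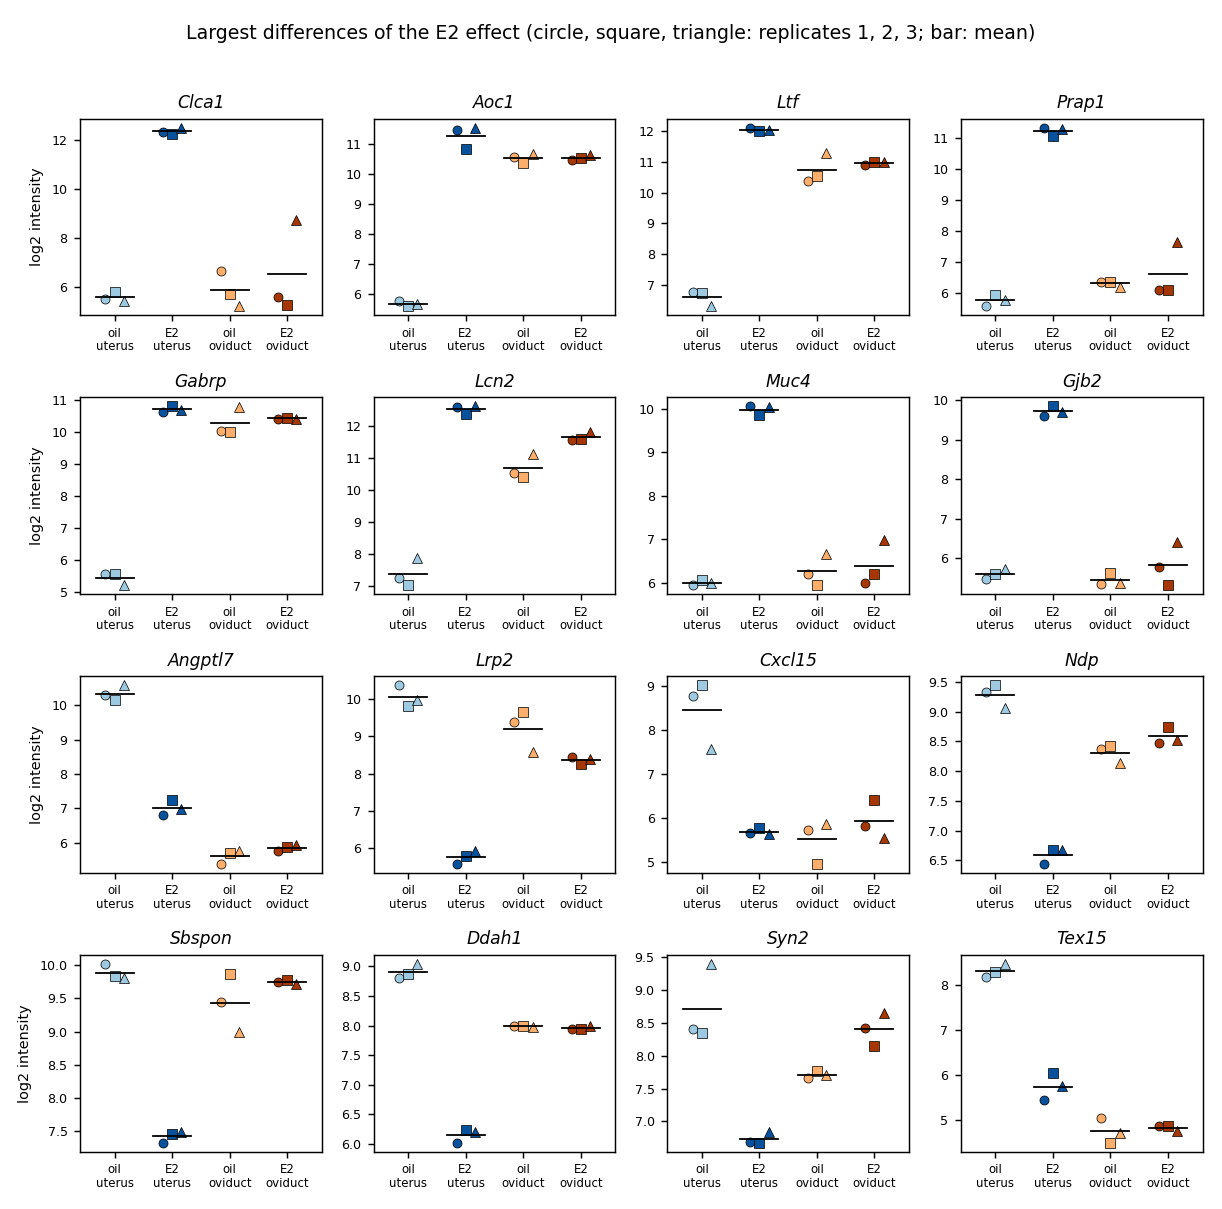
Log2 intensity on each array (points, 3 per group; bar, group mean) for 8 genes with large negative differences (upper panels) and 8 with large positive ones (lower panels); the vertical axes differ between panels and do not start at 0. Aoc1, Ltf and Gabrp were high in both oviduct groups, Clca1, Prap1, Muc4 and Gjb2 were low in oviduct, and Angptl7 and Tex15 fell in uterus and stayed low in oviduct.

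Genes known as targets of estrogen in the uterus differed mostly in the negative direction. Of 23 measured, the difference was negative for 19 and positive for 1 (beside 5.71% and 5.77% of all genes), with a median of -2.42 and medians of 2.66 in uterus and 0.14 in oviduct. These lists were chosen with results of these data known, so the counts are descriptions. The same shares of all genes stand beside the counts of every list below. Besides Clca1, Ltf, Muc4, Gjb2 and Trpv6 the negative estrogen targets included Lcn2, which withholds iron from bacteria by binding siderophores. Lcn2 lay at 7.24, 7.04 and 7.87 in oil uterus, 12.60, 12.37 and 12.61 in E2 uterus, 10.53, 10.42 and 11.14 in oil oviduct and 11.57, 11.60 and 11.83 in E2 oviduct. The E2 oviduct arrays all lay above the oil oviduct arrays, and the oviductal effect of 0.97 (SE 0.22) did not pass the test (adjusted p = 0.12, limma), while the difference was -4.17 (SE 0.30, adjusted p = 1.41e-05, limma). The matrix protease Mmp7 likewise had an oviductal estimate of 1.23 (SE 0.34), beside 3.65 (SE 0.34) in uterus and a difference of -2.42 (SE 0.47). The positive member, named after its value was seen, was the growth factor Igf1, with -1.16 in uterus, -0.14 in oviduct and a difference of 1.02 (SE 0.16).

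Mucosal defence genes followed with 9 of 21 negative and 1 positive (median -0.34). Pigr, which carries antibodies across epithelium, differed by -3.14 (SE 0.28) and rose by 3.49 (SE 0.20) in uterus. Among complement genes 4 of 16 differed, all negative (median -0.17). Complement factor B, Cfb, lay at 7.23, 7.13 and 7.17 in oil uterus, 11.27, 10.92 and 11.13 in E2 uterus, 6.74, 6.91 and 6.72 in oil oviduct and 7.17, 6.87 and 7.92 in E2 oviduct. The E2 uterus arrays were far above the rest, E2 oviduct replicate 3 was the highest oviduct array, and the difference was -3.40 (SE 0.29, adjusted p = 2.74e-05, limma). The inhibitor Cfi differed by -2.94 (SE 0.56), C2 by -0.91 and the cell-surface protector Cd55 by -0.86. Sialic acid and mucin glycosylation genes differed in 8 of 18 members negatively and in 2 positively (median -0.02). Fut9, a fucosyltransferase that builds Lewis antigens, lay at 5.48, 5.33 and 5.43 in oil uterus, 8.61, 8.43 and 8.96 in E2 uterus, 7.58, 7.80 and 7.66 in oil oviduct and 7.69, 7.79 and 7.92 in E2 oviduct. E2 brought it in uterus above both oviduct groups, which overlapped, and the difference was -3.14 (SE 0.17, adjusted p = 2.76e-06, limma). The mucin-initiating Galnt3 differed by -1.76 (SE 0.20).

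Ion and water transport genes differed in both directions, with 8 of 26 negative and 3 positive (median -0.11). The chloride channel Cftr, through which epithelia secrete fluid, lay at 5.26, 4.73 and 5.06 in oil uterus, 7.62, 7.49 and 7.92 in E2 uterus, 8.77, 8.59 and 8.59 in oil oviduct and 8.73, 8.81 and 8.83 in E2 oviduct. Every oviduct array was above every uterine array, and the oil and E2 arrays of oviduct overlapped. The difference for Cftr was -2.52 (SE 0.19, adjusted p = 1.67e-05, limma). The potassium channel Kcnq1 differed by -1.19 (SE 0.12), from 1.13 (SE 0.08) in uterus. The 3 positive members, named after their values were seen, were the bicarbonate transporter Slc4a4 (0.96), the chloride channel Ano1 (0.83) and the sodium pump subunit Atp1b1 (0.67), each of which fell in uterus.

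Epithelial markers differed negatively in 12 of 14 members and positively in 0 (median -0.86, with 0.80 in uterus and -0.12 in oviduct). The count of positive members was also 0 under each alternative tried, and without both oil replicate 3 arrays 12 were negative. Keratin 19 (Krt19) lay at 8.10, 7.83 and 7.60 in oil uterus, 9.70, 9.74 and 9.89 in E2 uterus, 10.02, 10.28 and 10.10 in oil oviduct and 10.00, 9.89 and 10.04 in E2 oviduct. The oil uterus arrays were the low ones, and E2 uterus stayed just below oviduct. Its difference was -2.09 (SE 0.16, adjusted p = 1.97e-05, limma). The epithelial transcription factor Elf3 differed by -2.64 (SE 0.21), Krt7 by -2.08 (SE 0.22) and Krt8 by -1.42 (SE 0.12). Centred on each gene's mean over 12 arrays, the list median lay between -0.92 and -0.72 in oil uterus, between 0.16 and 0.23 in E2 uterus, between 0.24 and 0.42 in oil oviduct and between 0.17 and 0.28 in E2 oviduct. The marker rise in uterus accompanied the epithelial genes above, and its part in their differences was not tested.

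Oviduct secretory cell genes differed negatively in 6 of 12 members and positively in 2 (median -0.49). The positive ones were Dcpp2 and Dcpp3, described below. Dmbt1, a mucosal scavenger protein, differed by -2.14 (SE 0.38) with both oviduct means under 5, and Pax8 by -1.02 (SE 0.20). Of 17 measured tract patterning genes, 6 differed negatively and 4 positively. Wnt7a, an epithelial signal of the developing duct, lay at 6.24, 6.08 and 6.89 in oil uterus, 7.26, 7.68 and 7.22 in E2 uterus, 6.96, 6.88 and 6.78 in oil oviduct and 6.04, 6.29 and 6.11 in E2 oviduct, higher with E2 in uterus and lower with E2 in oviduct without overlap in either tissue. Its difference was -1.71 (SE 0.26, adjusted p = 0.00166, limma), and the oviductal effect of -0.73 (SE 0.19) did not pass the test. Pax2 (-0.52), Msx2 (-0.93) and, named after their values were seen, Emx2 (-0.52) and Wnt4 (-0.51) also differed negatively. The positive members were the Wnt effector Lef1 (1.86, SE 0.16), Hoxa11 (0.87, SE 0.14) and, named after their values were seen, Hoxd11 (0.89) and Hoxd9 (0.51). The call of Msx2 ended without any of 7 single arrays, and that of Pax2 without oil uterus replicate 2, E2 uterus replicate 1 or 2 or E2 oviduct replicate 1 or 2. The count of negative patterning genes fell to 3 without oil uterus replicate 2, E2 uterus replicate 1 or E2 uterus replicate 2.

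Positive differences were mostly genes that E2 lowered in uterus and left near their oil level in oviduct. Angptl7, a secreted angiopoietin-like protein, lay at 10.29, 10.14 and 10.58 in oil uterus, 6.80, 7.26 and 6.98 in E2 uterus, 5.39, 5.70 and 5.76 in oil oviduct and 5.77, 5.87 and 5.92 in E2 oviduct. Oviduct was low throughout, and the difference was 3.56 (SE 0.20, adjusted p = 3.06e-06, limma). Lrp2, a large endocytic receptor, lay at 10.38, 9.83 and 9.97 in oil uterus, 5.57, 5.79 and 5.91 in E2 uterus, 9.38, 9.66 and 8.58 in oil oviduct and 8.44, 8.25 and 8.40 in E2 oviduct. It was high in oil arrays of both tissues, and its difference was 3.46 (SE 0.33, adjusted p = 6.05e-05, limma). In oviduct its estimate of -0.84 (SE 0.23) did not pass the test (adjusted p = 0.207, limma), although every E2 oviduct array lay below every oil oviduct array. Ddah1 degrades an inhibitor of nitric oxide synthesis. It lay at 8.81, 8.87 and 9.04 in oil uterus, 6.02, 6.24 and 6.20 in E2 uterus and 7.95, 7.94 and 7.99 in E2 oviduct, and at 7.99 ± 0.013 (SD, n = 3) in oil oviduct. Oviduct arrays of oil and E2 overlapped within 0.1 log2 units, and the difference was 2.72 (SE 0.11, adjusted p = 2.38e-07, limma).

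Several of these genes were well expressed in oviduct. Ndp, a ligand of a Wnt receptor, had oviduct means of 8.31 with oil and 8.58 with E2 and differed by 2.95 (SE 0.17). The secreted matrix protein Sbspon, with oviduct means of 9.44 and 9.75, differed by 2.78 (SE 0.24). The monoamine oxidase Maob lay at 11.28, 11.33 and 10.76 in oil uterus, 9.18, 8.78 and 9.33 in E2 uterus, 9.60, 9.68 and 8.92 in oil oviduct and 9.96, 9.96 and 10.06 in E2 oviduct. E2 lowered it in uterus, and the E2 oviduct arrays lay above all oil oviduct arrays. The difference for Maob was 2.62 (SE 0.30, adjusted p = 0.000196, limma). The synapsin Syn2 differed by 2.68 (SE 0.32), from -1.98 (SE 0.23) in uterus and 0.70 (SE 0.23) in oviduct. The oviductal effects of Maob and Syn2 did not pass the test in the fit of all arrays. The hyaluronan synthase Has2 differed by 2.51 (SE 0.19) and Tex15, a germ cell gene, by 2.64 (SE 0.23), both below 7.50 on all oviduct arrays.

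Progesterone-dependent uterine genes differed positively in 10 of 22 members and negatively in 1 (median 0.53, with -0.62 in uterus and -0.05 in oviduct). After Lrp2, the decoy receptor Il13ra2 differed by 2.89 (SE 0.42) and the hedgehog receptor Ptch1 by 1.64 (SE 0.12). Ptch1 lay at 9.85, 9.94 and 9.83 in oil uterus, 8.17, 8.35 and 8.24 in E2 uterus, 9.68, 9.65 and 9.41 in oil oviduct and 9.54, 9.68 and 9.56 in E2 oviduct. E2 uterus was the only low group. Ihh, the epithelial ligand of that receptor, fell by 0.84 in uterus and its difference of 0.61 (SE 0.27, adjusted p = 0.205, limma) did not pass the test. The negative member, named after its value was seen, was the transcriptional regulator Cited2 (-0.51). In the absence of both oil replicate 3 arrays 2 members were negative. Endometrial gland genes differed positively in 5 of 13 members and negatively in 1 (median 0.51). Spink1, a trypsin inhibitor, differed by 3.87 (SE 0.34), and the chemokine Cxcl15 by 3.17 (SE 0.49), both below 7.50 on all oviduct arrays. Cxcl17, the negative member, differed by -3.06 (SE 0.27). Oil uterus replicate 3 was high for Spink1 (8.09, against 7.03 and 7.16) and low for Cxcl15 (7.57, against 8.77 and 9.01). Without both oil replicate 3 arrays the gland median was 0.30. The count of positive gland genes fell to 3 without E2 uterus replicate 2 or without any single oviduct array other than oil oviduct replicate 2.

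Cell cycle genes differed positively in 18 of 29 members and negatively in 0 (median 1.19, with -1.18 in uterus and 0.03 in oviduct). Bub1, a mitotic checkpoint kinase, lay at 8.67, 8.92 and 7.50 in oil uterus, 6.12, 6.39 and 6.98 in E2 uterus, 4.83, 4.86 and 6.14 in oil oviduct and 5.55, 5.20 and 5.56 in E2 oviduct. Oil uterus was high and oviduct low, with oil replicate 3 below the other oil arrays in uterus and above all other oviduct arrays. Its difference was 2.03 (SE 0.57, adjusted p = 0.0396, limma). Aurkb, a kinase of chromosome segregation, differed by 1.73 (SE 0.32), Ccna2, an S-phase cyclin, by 1.78 (SE 0.45), and the topoisomerase Top2a by 1.77 (SE 0.43). The calls of Bub1, Ccna2 and Top2a ended without any of several single arrays (9, 8 and 5 of the 12), while that of Aurkb held. The number of positive members was 11 without E2 uterus replicate 1 or E2 oviduct replicate 3, 25 without oil oviduct replicate 3 and 27 without both oil replicate 3 arrays. The list median on each array, centred as above, was 0.67 to 1.44 in oil uterus, -0.13 to 0.13 in E2 uterus, -0.76 to -0.27 in oil oviduct and -0.74 to -0.46 in E2 oviduct.

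Protein folding and endoplasmic reticulum stress genes differed positively in 8 of 19 members and negatively in 0 (median 0.65). The disulfide isomerase Pdia6 lay at 9.61, 9.49 and 9.73 in oil uterus, 8.64, 8.84 and 8.95 in E2 uterus, 9.54, 9.67 and 9.56 in oil oviduct and 9.71, 9.87 and 9.85 in E2 oviduct. E2 uterus was the only low group, and the difference was 1.02 (SE 0.13, adjusted p = 0.000448, limma). Asparagine synthetase (Asns) differed by 1.00 (SE 0.14) and the chaperone Hyou1 by 0.87 (SE 0.17). Sterol synthesis genes differed positively in 2 of 15 members, beside 5.77% of all genes, and negatively in 0. The 2 were Idi1 (1.58, SE 0.23) and Cyp51 (0.63, SE 0.15). The positive count was 5 without oil oviduct replicate 3 or without both oil replicate 3 arrays. It was 1 without E2 uterus replicate 2, oil oviduct replicate 2 or E2 oviduct replicate 3, each of which ended the call of Cyp51. Glucose use genes differed positively in 5 of 16 members and negatively in 1. The glucose transporter Slc2a3 had the largest difference, 1.94 (SE 0.22), from -2.24 (SE 0.16) in uterus and -0.30 (SE 0.16) in oviduct. The glycolytic enzymes Pgam1 (0.56), Pkm (0.47), Pgk1 (0.46) and, named after its value was seen, Ldha (0.39) differed by less. The call of Pkm ended without E2 oviduct replicate 1 or 3, oil oviduct replicate 1, oil uterus replicate 1 or E2 uterus replicate 3. The positive glucose count was 3 without oil uterus replicate 1, oil oviduct replicate 1, E2 oviduct replicate 1 or E2 oviduct replicate 3.

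Endothelial markers differed positively in 6 of 12 members and negatively in 0, with 1 negative at an unadjusted p under 0.05 (median 0.42). Of all 19938 genes, 4717 had an unadjusted p under 0.05. The junction cadherin Cdh5 differed by 1.09 (SE 0.15), Esam by 0.77 (SE 0.13) and the coreceptor Eng by 0.74 (SE 0.12). Oviductal effects were 0.14, -0.01 and 0.01. Stromal markers differed positively in 4 of 11 members, Thy1 (1.17), Hoxa11, Hand2 (0.67) and Pdgfra (0.51), and the call of Pdgfra ended without any of 10 single arrays. Collagens Col1a1 (-0.05) and Col3a1 (0.14) did not pass the test. Matrix and protease genes went both ways, 5 of 22 positive and 4 negative. The proteoglycan Vcan differed by 1.92 (SE 0.20) and the protease Mmp11 by -1.93 (SE 0.12). Without both oil replicate 3 arrays 7 matrix genes were negative.

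**Figure D3:**
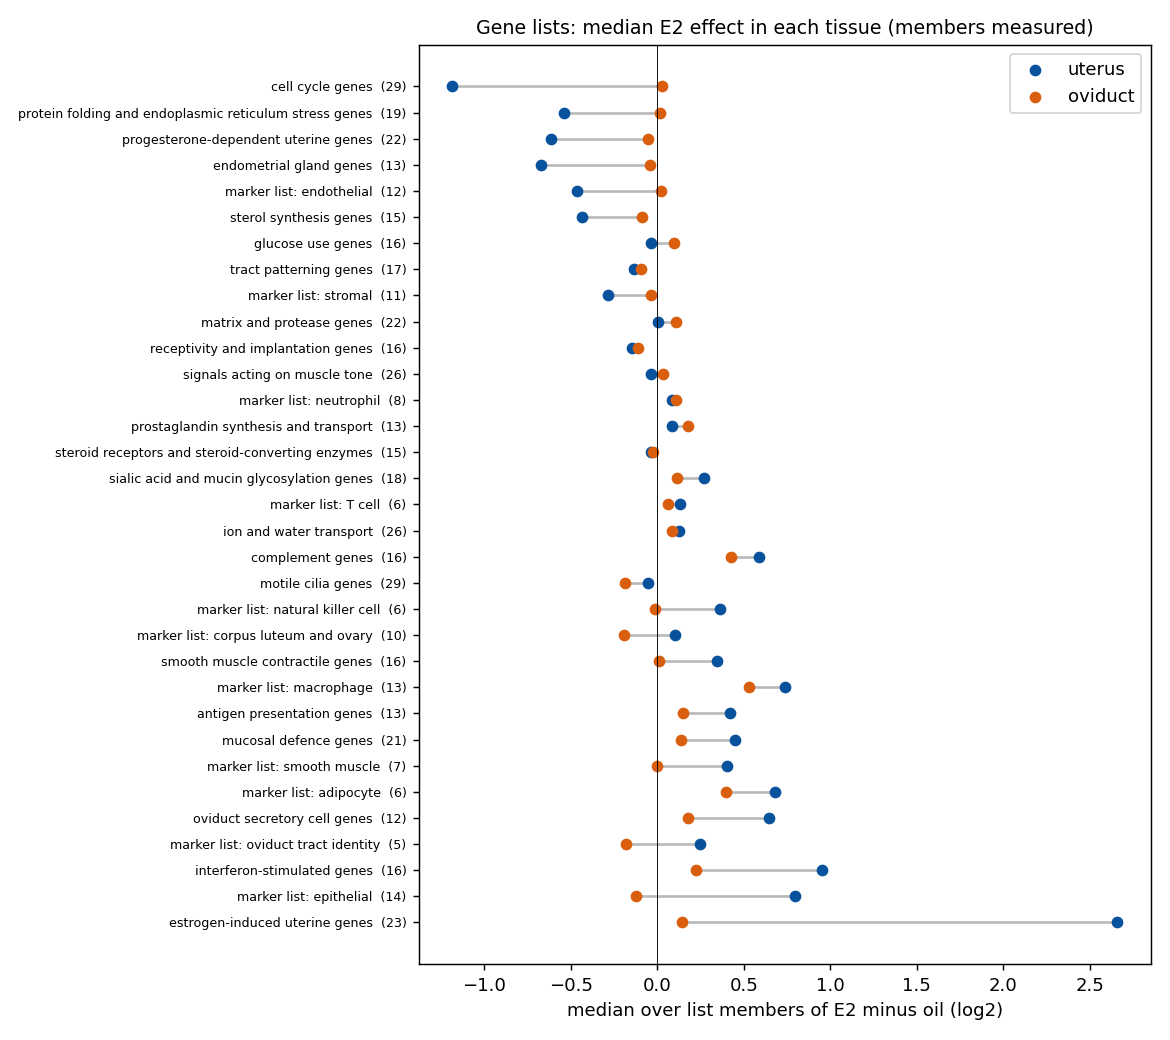
Median E2 effect (log2, horizontal) over the measured members of each list with at least 5 of them, in uterus (blue) and oviduct (orange), joined by a line whose length shows the gap between the medians; members measured stand in brackets. The widest gaps are those of the estrogen-induced list (2.66 in uterus, 0.14 in oviduct) and the cell cycle list (-1.18 and 0.03).

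E2 moved 8 genes in opposite directions in the tissues, each past the test in both. Wfdc2, a secreted protein of the oviductal and uterine epithelium with protease inhibitor domains, rose in uterus by 1.18 (SE 0.12) and fell in oviduct by 0.95 (SE 0.12). It lay at 8.68, 8.45 and 8.23 in oil uterus, 9.51, 9.62 and 9.77 in E2 uterus, 9.15, 9.38 and 9.03 in oil oviduct and 8.16, 8.24 and 8.31 in E2 oviduct. The groups did not overlap within either tissue, and the difference was -2.13 (SE 0.17, adjusted p = 2.14e-05, limma). Secreted phospholipase Pla2g5 (0.37 in uterus, -0.57 in oviduct, difference -0.93, SE 0.14) and the tight junction protein Cldn4 (0.32 in uterus, -0.46 in oviduct, difference -0.78, SE 0.11) had the same pattern.

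The other 5 fell in uterus and rose in oviduct. Gulo makes vitamin C in rodents and had the largest difference of them. It lay at 7.56, 7.54 and 7.65 in oil uterus, 6.11, 6.28 and 5.84 in E2 uterus, 7.06, 7.29 and 7.01 in oil oviduct and 7.87, 7.73 and 7.79 in E2 oviduct. The oil uterus arrays lay above the oil oviduct arrays, and the E2 uterus arrays lay below the E2 oviduct arrays. The difference for Gulo was 2.19 (SE 0.16, adjusted p = 1.29e-05, limma). Apela, a peptide ligand of the apelin receptor, lay at 6.81, 7.13 and 7.03 in oil uterus, 5.80, 6.09 and 6.26 in E2 uterus, 5.74, 5.33 and 5.16 in oil oviduct and 6.16, 6.30 and 6.45 in E2 oviduct. The oil and E2 arrays did not overlap in either tissue, and the difference was 1.83 (SE 0.22, adjusted p = 0.000341, limma). Every group mean of Apela lay below 7.50, so that size is uncertain. Adgrg2, an adhesion receptor of fluid-transporting epithelia, lay at 7.45, 7.65 and 7.41 in oil uterus, 6.20, 6.38 and 6.69 in E2 uterus, 8.47, 8.64 and 8.50 in oil oviduct and 9.13, 9.33 and 9.27 in E2 oviduct, with the E2 oviduct arrays highest of all. The difference for Adgrg2 was 1.79 (SE 0.17, adjusted p = 5.26e-05, limma). Acyl-CoA synthetase Acsf2 differed by 1.22 (SE 0.12), with -0.66 (SE 0.09) in uterus and 0.56 (SE 0.09) in oviduct, and the Ras effector Rassf5 by 0.85 (SE 0.13), with -0.27 (SE 0.09) and 0.58 (SE 0.09). The differences of all 8 genes stayed past the test with any single array left out. Membership of the class did not hold in the same way, because calls within a tissue were lost. Many lost calls were oviductal, but Rassf5 lost its uterine call without oil uterus replicate 2 or E2 uterus replicate 1 or 2. Pla2g5 lost its uterine call without oil uterus replicate 3. The class held 0 genes without E2 oviduct replicate 1 or 2, 1 to 5 without each other array except oil uterus replicate 3 (10), and 17 without both oil replicate 3 arrays.

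Only 13 of the 2288 genes passed in oviduct and not in uterus, 12 of them higher with E2. Dcpp2 encodes a secreted protein. Its near-identical gene copies leave its identity uncertain. It had the largest difference, 2.68 (SE 0.48, adjusted p = 0.00375, limma). It lay at 3.66, 3.30 and 3.46 in oil uterus, 3.06, 3.68 and 3.41 in E2 uterus, 5.13, 5.36 and 3.93 in oil oviduct and 6.84, 7.64 and 7.71 in E2 oviduct. E2 oviduct was the highest group, and oil oviduct replicate 3 was lower than the other oil oviduct arrays. Every group mean of Dcpp2 lay below 7.50, so the size of its difference is uncertain. Its relative Dcpp3 lay at 5.35, 4.99 and 5.41 in oil uterus, 5.36, 5.46 and 5.25 in E2 uterus, 8.25, 8.08 and 5.74 in oil oviduct and 9.99, 9.84 and 10.03 in E2 oviduct, with the same low array, and differed by 2.49 (SE 0.69, adjusted p = 0.039, limma), although its oviductal effect of 2.59 (SE 0.49) did not pass the test (adjusted p = 0.062, limma). The call for the difference of Dcpp3 ended without any of 9 single arrays, all but those of oil oviduct. Without both oil replicate 3 arrays the differences of Dcpp2 and Dcpp3 were 2.25 and 1.60.

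Chad, a matrix protein that binds collagen and integrins, lay at 5.74, 5.49 and 5.67 in oil uterus, 5.73, 5.65 and 5.60 in E2 uterus, 7.91, 7.59 and 7.49 in oil oviduct and 8.80, 8.96 and 8.86 in E2 oviduct. Uterus was near background with both treatments, all E2 oviduct arrays lay above all oil oviduct arrays, and the difference was 1.19 (SE 0.15, adjusted p = 0.000438, limma). Tns4, a focal adhesion protein, lay at 6.53, 6.54 and 6.16 in oil uterus, 6.46, 6.64 and 6.10 in E2 uterus, 6.45, 6.64 and 6.41 in oil oviduct and 7.79, 7.80 and 7.77 in E2 oviduct. E2 oviduct stood alone above the other groups, with a difference of 1.30 (SE 0.19, adjusted p = 0.00133, limma). The imprinted proteolipid gene Nnat lay at 7.06, 7.18 and 7.58 in oil uterus, 6.78, 7.07 and 7.71 in E2 uterus, 7.44, 7.73 and 7.81 in oil oviduct and 9.02, 8.76 and 8.97 in E2 oviduct. Its E2 oviduct arrays lay above all others, and its difference was 1.34 (SE 0.30, adjusted p = 0.0127, limma). The kallikrein Klk1b1 (1.61, SE 0.19), whose near-identical copies leave its identity uncertain, and the protease inhibitor Mug1 (0.93, SE 0.18), like Dcpp2, had means below 7.50 in every group. The uncharacterised 2300002M23Rik differed by 0.98 (SE 0.16). Periplakin (Ppl), a desmosome-linked protein, was the member lower with E2, at -0.60 in oviduct and -0.83 (SE 0.14) for the difference. Completing the class after the values were seen, the others were Siglec15 (0.67), Aldh2 (0.58), Col12a1 (0.56), Pgk1 and the translocon protein Ssr4 (0.43). The call of Col12a1 ended without any of 7 single arrays. The class held 5 to 15 genes with any single array left out, fewest without E2 oviduct replicate 2 or 3, and 22 without both oil replicate 3 arrays.

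**Figure D4:**
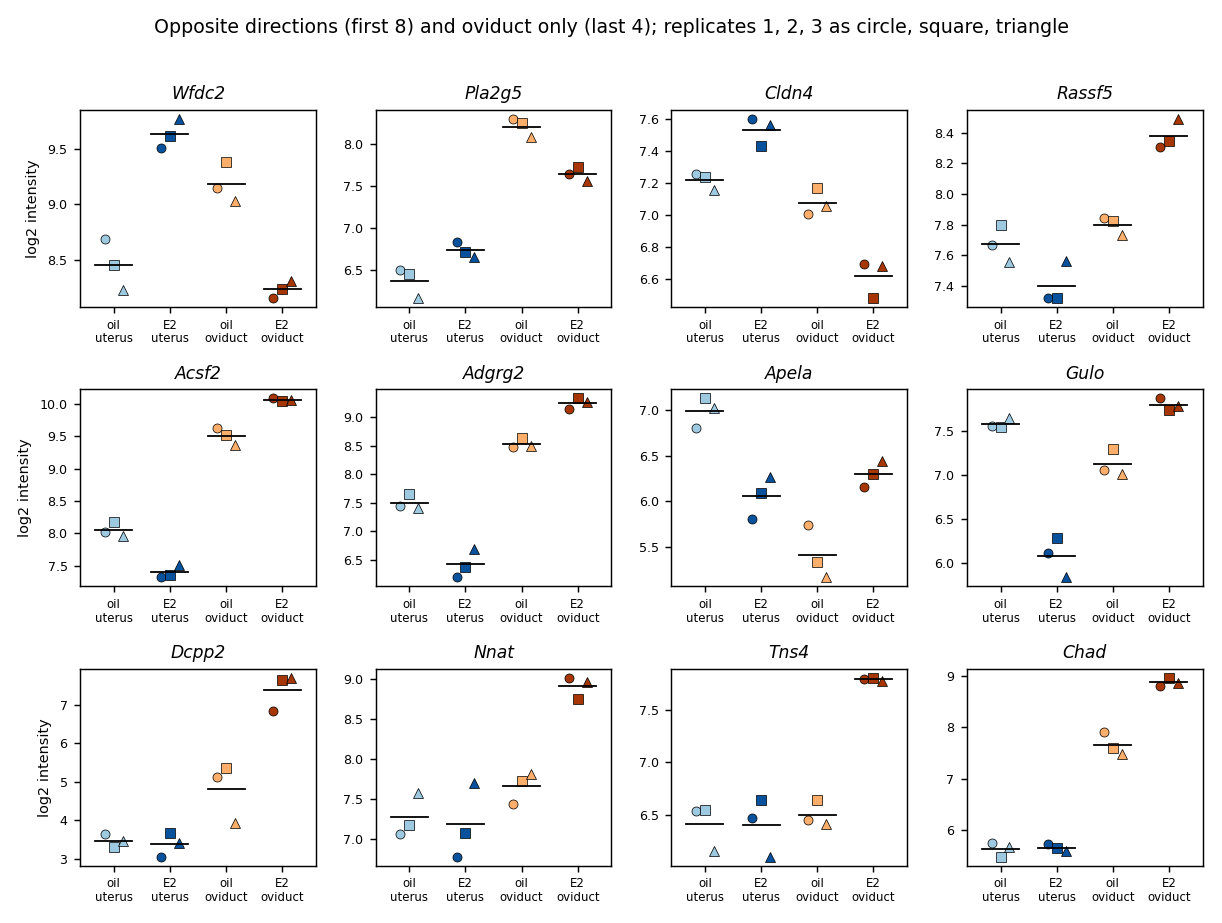
Log2 intensity on each array (points, 3 per group; bar, group mean) for the 8 genes called in opposite directions (first 8 panels) and 4 genes called in oviduct and not in uterus (last 4 panels); the vertical axes differ between panels and do not start at 0. Wfdc2 rises in uterus and falls in oviduct, Gulo does the reverse, and for Tns4 and Chad the E2 oviduct arrays alone are high or higher.

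In 10 genes both tissues moved the same way by unequal amounts, and in 9 of them the uterus moved more. Npl, a sialic acid lyase, lay at 10.70, 10.26 and 10.12 in oil uterus, 6.56, 6.69 and 6.74 in E2 uterus, 10.31, 10.65 and 9.67 in oil oviduct and 8.72, 8.69 and 8.55 in E2 oviduct. It fell in both tissues, to a lower level in uterus, and the difference was 2.14 (SE 0.29, adjusted p = 0.000768, limma). Acod1, which makes itaconate, fell by 3.85 in uterus and by 1.90 in oviduct and differed by 1.95 (SE 0.40). The thioesterase Acot7 fell by 2.58 and 0.76 and differed by 1.82 (SE 0.18). Sftpd, a collectin of mucosal defence, rose by 3.19 and 1.14, with a difference of -2.06 (SE 0.25), and the purine-degrading Xdh rose by 1.62 and 0.38, with -1.24 (SE 0.09). The secretoglobin Scgb1c1 was the exception. It lay at 5.33, 4.77 and 5.41 in oil uterus, 6.42, 6.07 and 6.01 in E2 uterus, 6.57, 6.65 and 6.49 in oil oviduct and 9.13, 8.68 and 9.02 in E2 oviduct. It rose more in oviduct, and the difference was 1.37 (SE 0.24, adjusted p = 0.00374, limma). Completing the class after the values were seen, spermidine synthase Srm (1.19), the chloride transporter Clcn5 (1.02), the nucleolar Gnl3 (0.51) and collagen Col14a1 (0.38) fell in both tissues. The difference of Col14a1 did not pass without any of 8 single arrays, nor without both oil replicate 3 arrays (adjusted p = 0.0615, limma). The class held 1 gene without any one E2 oviduct array, 3 to 7 without any one of the other arrays except oil uterus replicate 3 (17), and 20 without both oil replicate 3 arrays.

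Beside 5.77% of all genes positive and 5.71% negative, 1 of 15 steroid receptors and steroid-converting enzymes differed positively and 1 negatively. These were Hsd11b2, which inactivates glucocorticoids (1.13, SE 0.15), and Hsd17b2, which inactivates estradiol (-0.70, SE 0.18), whose call ended without any of 7 single arrays or without both oil replicate 3 arrays. Esr1, the main estrogen receptor, lay at 10.60, 10.56 and 10.64 in oil uterus, 10.66, 10.70 and 10.75 in E2 uterus, 10.98, 10.97 and 10.93 in oil oviduct and 11.03, 11.04 and 10.96 in E2 oviduct. Oviduct was above uterus in every array, and the difference was -0.05 (SE 0.08, adjusted p = 0.774, limma), with a 95% interval from -0.23 to 0.12. For Esr2 it was -0.02 (95% interval -0.26 to 0.21) at levels below 7.50. The progesterone receptor Pgr differed by 0.07 (95% interval -0.41 to 0.55). None of these 3 passed the test.

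Interferon-stimulated genes differed negatively in 3 of 16 members (Mx1 -1.75, Usp18 -1.19 and Zbp1 -1.04) and positively in 0, with a median of -0.82. The call of Usp18 ended without any of 10 single arrays and without both oil replicate 3 arrays (-0.70, adjusted p = 0.0759, limma), and that of Zbp1 without any of 7 single arrays. The centred list median was -0.82 on oil uterus replicate 3, against -0.15 and -0.01 on the other oil uterus arrays, and -0.76 on oil oviduct replicate 3, against -0.08 and 0.14. The count was 8 without oil oviduct replicate 3, 10 without both oil replicate 3 arrays, and 1 without oil uterus replicate 3, E2 uterus replicate 1 or 2, oil oviduct replicate 1 or 2, or E2 oviduct replicate 1 or 2. Smooth muscle contractile genes differed in 0 of 16 members by limma, with 5 negative without oil uterus replicate 3 or without both oil replicate 3 arrays. For Myh11, the smooth muscle myosin, the difference was -0.42 (SE 0.17, adjusted p = 0.158, limma). At an unadjusted p under 0.05, 2 contractile genes were negative and 0 positive, beside 4717 of all 19938 genes with either sign. Prostaglandin synthesis and transport genes differed in 0 of 13 members by limma, with 2 at an unadjusted p under 0.05. With both oil replicate 3 arrays left out, 1 was positive and 2 were negative. Those called then included the prostaglandin synthase Ptgs2 (-0.92, adjusted p = 0.0268, limma) and the prostaglandin D synthase Hpgds (-0.53, adjusted p = 0.0141, limma), which over all arrays differed by -0.59 and -0.35. Of 26 signals acting on muscle tone, beside 5.71% of all genes negative and 5.77% positive, 4 differed negatively and 3 positively. They included the oxytocin receptor Oxtr (-0.99, SE 0.17), endothelin Edn1 (-0.75, SE 0.14), the lysophosphatidic acid receptor Lpar3 (0.99, SE 0.16) and the prostaglandin F receptor Ptgfr (0.81, SE 0.22), whose call ended without any of 8 single arrays. The negative count fell to 2 without oil uterus replicate 3, E2 uterus replicate 1 or 2 or E2 oviduct replicate 3, and the positive count to 1 without oil uterus replicate 1, E2 uterus replicate 2, oil oviduct replicate 1 or E2 oviduct replicate 3.

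Motile cilia genes differed in 1 of 29 members, beside 11.5% of all genes. It was Myb, a regulator of multiciliated cell formation, at -2.61 (SE 0.45, adjusted p = 0.00313, limma). Myb rose in uterus and was higher in oil oviduct replicate 3 (9.98, against 8.49 and 8.79) than on the other oviduct arrays. The list median was -0.18, and 0.14 without both oil replicate 3 arrays, where 2 members were positive and 2 negative. Without oil oviduct replicate 3 alone 2 were positive and 1 negative, and without oil uterus replicate 3 alone 0 and 2. Foxj1, the master regulator of motile cilia, lay at 6.44, 6.64 and 6.24 in oil uterus, 6.35, 6.73 and 6.58 in E2 uterus, 8.10, 7.80 and 9.10 in oil oviduct and 8.20, 8.13 and 8.24 in E2 oviduct, with a difference of -0.25 (SE 0.36). Receptivity genes differed negatively in 5 of 16 members and positively in 2. The leukemia inhibitory factor receptor Lifr differed by -1.89 (SE 0.14), and its ligand Lif by 0.51 (SE 0.34, adjusted p = 0.429, limma), with Lif high on oil uterus replicate 3 (7.11, against 5.80 and 6.30). The count of negative members was 3 without oil uterus replicate 1 or 2 or E2 uterus replicate 1 or 2. Of immune cell markers, 1 of 13 macrophage genes (Cd68, -0.99, SE 0.22) and 1 of 8 neutrophil genes (Ly6g, -2.41, SE 0.28) differed, both negatively, beside 5.71% of all genes. The median E2 effect of the macrophage list was 0.74 in uterus and 0.53 in oviduct. Without oil oviduct replicate 3, or without both oil replicate 3 arrays, 4 macrophage genes were negative. T cell, B cell, natural killer cell, adipocyte, red cell, corpus luteum and antigen presentation lists had 0 called members by limma. At an unadjusted p under 0.05 there were 2 natural killer cell genes, 1 antigen presentation gene and 0 of the other 5 lists. Of all 19938 genes, 4717 lay under that unadjusted limit. Antigen presentation had 3 negative members, and the natural killer cell list 1 positive and 1 negative, without both oil replicate 3 arrays.

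**Figure D5:**
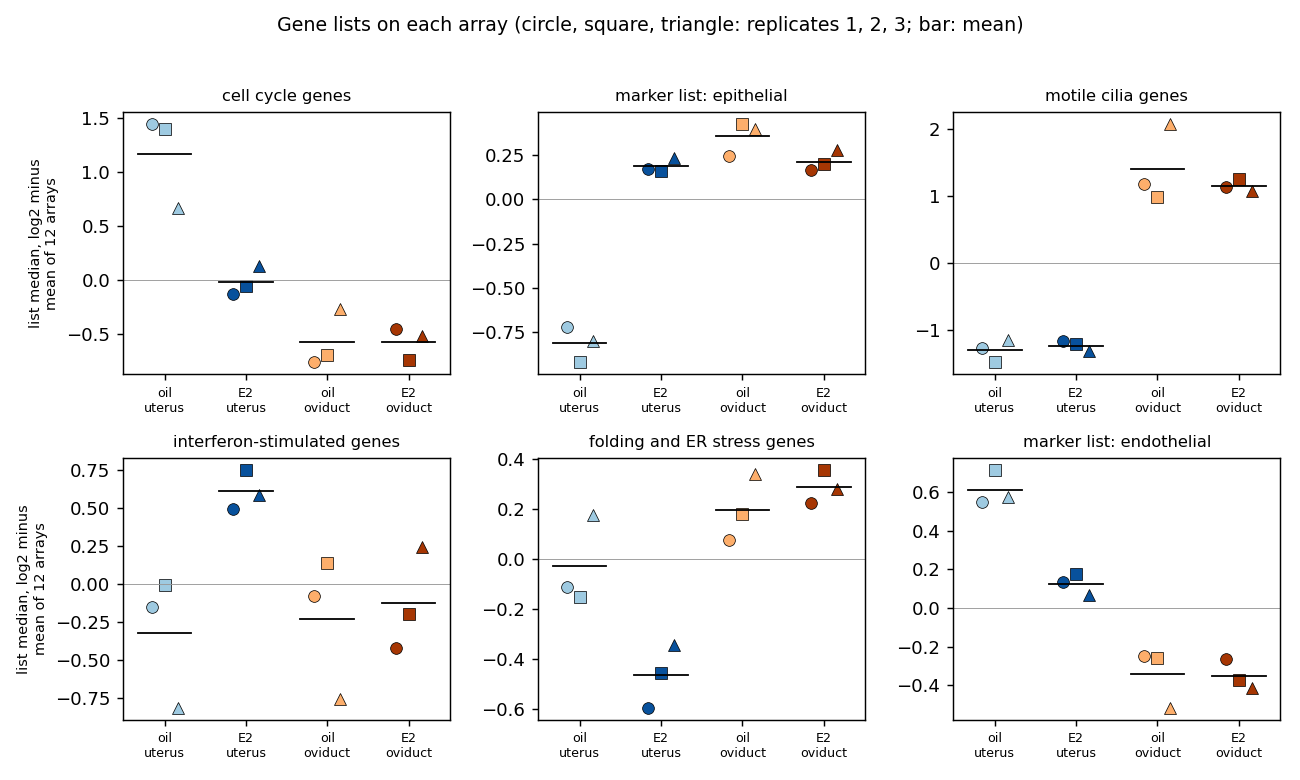
List medians on each array (points, 3 per group; bar, group mean), in log2 units after each gene was centred on its mean over 12 arrays; the vertical axes differ between panels. Oil uterus stands apart from the other 3 groups for the epithelial list (-0.92 to -0.72) and for the cell cycle list (0.67 to 1.44), oil replicate 3 (triangles) lies away from the other oil arrays for the cell cycle and interferon lists, and the cilia list separates the tissues.

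Promoter sequences were described because ESR1 binds estrogen response elements, whose full palindrome is GGTCA, any 3 bases, then TGACC. Windows of 275 bases, from 250 before to 25 after each start site, came from the RefSeq promoter table of build GRCm38.p6. Elements outside these windows were not searched. The palindrome, searched on both strands, was in 21 of 32851 windows and, among called genes with a window (1797), in the promoter of Cd300c alone, a leukocyte receptor named after this was seen. A single arm, GGTCA or its complement TGACC, was in 38% of all windows, in 36.4% of the first windows of measured genes, in 37.2% of the called genes, in 40.3% of genes called in uterus and not in oviduct that rose, and in 35% of those that fell. Windows of 3 genes with different patterns are shown, with the arm in capitals: Ltf (uterus rose, oviduct already high), Wfdc2 (opposite directions) and Chad (called in oviduct and not in uterus). They lie on the plus strand at chr9:111019042-111019316, chr2:164562465-164562739 and chr11:94564797-94565071. The arm begins 45, 4 and 42 bases before the start site. All 3 windows hold an arm, as 38% of all windows do, so they do not stand for their classes. An arm was in 2 of 7 windows of genes called in opposite directions. It was in 3 of 8 windows of genes called in oviduct and not in uterus. A match describes letters in the window and does not show binding.
Ltf: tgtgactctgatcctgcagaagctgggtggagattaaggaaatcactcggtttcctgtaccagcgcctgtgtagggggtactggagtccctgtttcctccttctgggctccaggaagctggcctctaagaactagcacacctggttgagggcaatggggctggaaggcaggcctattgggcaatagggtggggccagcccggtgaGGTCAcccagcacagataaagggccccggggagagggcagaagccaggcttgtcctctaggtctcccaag
Wfdc2: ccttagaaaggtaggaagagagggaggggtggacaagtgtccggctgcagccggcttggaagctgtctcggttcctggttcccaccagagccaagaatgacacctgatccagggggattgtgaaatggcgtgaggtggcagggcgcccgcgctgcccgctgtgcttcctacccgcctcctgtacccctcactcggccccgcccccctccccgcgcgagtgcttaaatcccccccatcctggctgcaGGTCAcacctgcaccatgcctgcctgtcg
Chad: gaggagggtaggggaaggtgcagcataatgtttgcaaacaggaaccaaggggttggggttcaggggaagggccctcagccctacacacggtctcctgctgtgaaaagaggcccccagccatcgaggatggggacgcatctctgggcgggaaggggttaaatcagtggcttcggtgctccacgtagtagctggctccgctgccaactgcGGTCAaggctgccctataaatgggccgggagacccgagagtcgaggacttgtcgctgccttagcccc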

How the data were processed

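RNA of 12 mouse oviduct and uterus samples was measured on Affymetrix arrays, 1 array per sample. The authors deposited 1 intensity per probe set and array, summarised by RMA per the submitters' processing notes (the sources used here give no version). The values are linear, so log2 was taken. Of 35556 probe sets, 21789 had a single gene symbol in the platform annotation, and 21698 of those matched a gene of the reference table. The probe set with the highest mean stood for its gene (19938 genes). The number of arrays limits the precision.

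One limma model (version 3.58.1, under R 4.3.3) held the means of the 4 groups over all 12 arrays with no covariate, with variances moderated by eBayes. The contrast was (E2 oviduct minus oil oviduct) minus (E2 uterus minus oil uterus). Tests were two-sided, with Benjamini-Hochberg adjustment over 19938 genes and a threshold of 0.05. On simulated data with 200 changed genes the fit recovered 23.9% of differences of 0.5, 82.1% of 1 and 100% of 2 log2 units, with 6 unchanged genes called. The simulation had independent normal noise of equal spread in all groups and no E2 effect in uterus. It had no outlying arrays and far fewer changed genes than were called here, so its shares apply to that setting.

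Genes were named by rule: up to 10 of each sign by size (a group mean of at least log2 8, array differences that do not overlap, called without both oil replicate 3 arrays), up to 8 called in opposite directions, up to 8 called in oviduct and not in uterus, up to 6 called in both in the same direction, up to 4 called members per list (2 where none was), and Esr1, Esr2, Pgr, Ltf, Lcn2, Foxj1, Lif and Ihh; predicted genes and members of near-identical families were passed over among the largest where possible. Members and lists were chosen with earlier results of these data known. Alternatives covered the gene measure, filters on low signal, an offset, scaling, the variance model, array weights, a fold threshold, a replicate block and left-out arrays. The labels do not say that equal replicate numbers mean the same mouse. Over genes, deviations of oviduct and uterus arrays with the same number and treatment correlated at 0.005 to 0.263 in 6 pairs. Of these, 2 were above 0.1. Arrays with other numbers correlated at -0.285 to 0.264 in 36 pairs, above 0.1 in 8. With 3 arrays a group this cannot decide whether equal numbers mark the same mouse. The main fit did not pair samples by number, and replicate blocks were run as alternatives.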

Additional observations from a re-analysis of the deposited data

Results flagged for a closer look

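The E2 effect differed between oviduct and uterus, by the test of the difference itself (limma), for 2288 genes. Among these, 8 genes were called in opposite directions in the tissues. The differences were 2.19 for Gulo, 1.83 for Apela, 1.79 for Adgrg2, 1.22 for Acsf2 and 0.85 for Rassf5, which fell in uterus and rose in oviduct. They were -2.13 for Wfdc2, -0.93 for Pla2g5 and -0.78 for Cldn4, which rose in uterus and fell in oviduct. Genes called in opposite directions numbered 0 without E2 oviduct replicate 1 or 2, and 17 without both oil replicate 3 arrays.

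Of 13767 probe sets outside the gene table, without a single named gene, 59 passed the same test of the difference (0.429%), 19 with a positive and 40 with a negative difference.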

How the results depend on the processing

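No named gene past the test changed sign under any alternative run. Class counts did move. The class of opposite directions, 8 genes in the main fit, held 0 without E2 oviduct replicate 1 and 44 with array weights. The count of 2288 genes (1150 positive, 1138 negative) was 4531 with array weights (2186 positive, 2345 negative) and 310 when tested against a fold of 0.5 log2 units (106 positive, 204 negative), where the positive share was 34.2%; that test asks for a larger difference by construction, and the cause of the rise with array weights was not tested. With single arrays left out the count lay between 1571 and 2521, the positive count between 729 and 1228 and the negative count between 842 and 1293. It was lowest without E2 oviduct replicate 3 and highest without oil oviduct replicate 3, and the positive count was 760 without E2 uterus replicate 1. With the replicate block across all groups 2218 genes were called (1103 positive, 1115 negative), and with the replicate block within treatment 2108 (996 positive, 1112 negative). Of the 2288 genes, 1793 were called again with the block within treatment. Of 115 named genes past the test, 62 stayed past the test against 0.5 log2 units, 104 with the replicate block within treatment and 112 without both oil replicate 3 arrays. Calls are limited by 3 arrays a group and, for 610 of the 2288 genes, by group means all below log2 7.50, the highest Y-linked signal.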
